A study of Mus musculus with 8 samples.

Results

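The genes described here are B2m and 7 heavy chain genes of mouse major histocompatibility complex (MHC) class I: the classical H2-K1 and H2-D1, and the nonclassical H2-T23, H2-T24, H2-Q4, H2-Q6 and H2-Q7. They were taken by gene symbol, 8 of the 23997 rows of an expression table of leukemic mouse bone marrow. They were chosen by their differences in FPKM (a level per transcript length and library depth) between the groups of these same libraries, so their levels and differences are a description, and no p-value is given for any of them. Counts of calls for the members are printed beside the share over all genes, and nothing is read from them. For the other gene lists these shares are given once, with the first list. RNA was sequenced from the marrow of C57BL/6 mice after death from a transplanted leukemia. The leukemias carried AML1-ETO with Meis2 (AE+Meis2, 3 libraries, median latency 171 days), AML1-ETO9a with Meis2 (AE9a+Meis2, 3 libraries, 102 days) or AML1-ETO9a alone (AE9a, 2 libraries, 138 days). AML1-ETO is a fusion protein of acute myeloid leukemia, AML1-ETO9a a shorter splice form of it, and Meis2 a homeobox transcription factor. All 3 groups started from the marrow of donors given 5-fluorouracil (5FU) 4 days earlier, cultured with IL3, IL6 and SCF, and each recipient was lethally irradiated and received cells 48 hours after transduction. No label names a vector, a sort of transduced cells, the age of the animals, or the animal or batch behind a library. The RNA is that of whole marrow, and p-values reflect only how these libraries vary, which may be technical. Normal marrow and marrow with AML1-ETO alone were not analysed here.

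MHC class I molecules carry peptides from inside the cell to its surface, where CD8 T cells and natural killer (NK) cells read them. Each consists of a polymorphic heavy chain, the light chain beta-2 microglobulin and a peptide, and without the light chain most heavy chains do not reach the surface. Interferons raise transcription of these genes through an interferon-stimulated response element (ISRE), and the coactivator NLRC5 acts through a conserved SXY module of X and Y boxes.

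The promoters are shown because these genes share control elements that part of the group carries in different forms. The promoter table of RefSeq (build GRCm38.p6) held 7 of the 8 genes, all but H2-T24, each with 250 bases before and 50 after the start of the transcript. Capitals mark matches on either strand to GGGGATTCC (the NF-kappaB site of class I enhancer A), GAAANNGAA and GAANNGAAA (cores of the ISRE in both spacings), TGACG (the core of the X2 box) and CCAAT (the Y box). The second ISRE spacing was added after the promoters had been read. The promoters of B2m (chr2:122147437-122147736, plus strand), H2-K1 (chr17:34000298-34000597, minus strand) and H2-T23 (chr17:36032652-36032951, minus strand) are given whole, each 5′ to 3′ on the gene's strand.
B2m: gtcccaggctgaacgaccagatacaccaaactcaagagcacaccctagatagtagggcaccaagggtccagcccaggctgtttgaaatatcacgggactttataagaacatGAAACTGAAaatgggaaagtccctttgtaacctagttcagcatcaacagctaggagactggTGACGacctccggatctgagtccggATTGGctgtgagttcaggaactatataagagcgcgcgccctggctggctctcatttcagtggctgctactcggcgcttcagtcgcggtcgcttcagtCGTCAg
H2-K1: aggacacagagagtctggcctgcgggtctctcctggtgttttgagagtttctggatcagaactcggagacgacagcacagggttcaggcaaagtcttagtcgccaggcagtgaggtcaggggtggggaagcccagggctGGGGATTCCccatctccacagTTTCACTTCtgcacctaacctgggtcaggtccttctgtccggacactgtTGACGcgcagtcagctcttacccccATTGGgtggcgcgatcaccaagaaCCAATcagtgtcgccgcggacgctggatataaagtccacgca
H2-T23: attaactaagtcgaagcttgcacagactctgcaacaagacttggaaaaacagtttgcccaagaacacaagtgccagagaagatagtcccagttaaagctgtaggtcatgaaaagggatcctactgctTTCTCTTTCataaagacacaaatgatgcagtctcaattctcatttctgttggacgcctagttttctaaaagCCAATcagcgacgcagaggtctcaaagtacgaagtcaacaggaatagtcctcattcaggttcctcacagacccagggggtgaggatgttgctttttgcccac
The stretch around enhancer A and the ISRE is given for 5 genes, for comparison, as windows of 48 bases. They lie at chr17:34000417-34000464 (H2-K1, minus strand), chr17:35262917-35262964 (H2-D1), chr17:35379437-35379484 (H2-Q4), chr17:35424671-35424718 (H2-Q6) and chr17:35439016-35439063 (H2-Q7), the last 4 on the plus strand.
H2-K1: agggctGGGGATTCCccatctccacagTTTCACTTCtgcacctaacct
H2-D1: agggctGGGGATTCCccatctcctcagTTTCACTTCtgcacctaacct
H2-Q4: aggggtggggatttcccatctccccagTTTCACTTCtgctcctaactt
H2-Q6: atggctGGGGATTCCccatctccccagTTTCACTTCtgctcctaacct
H2-Q7: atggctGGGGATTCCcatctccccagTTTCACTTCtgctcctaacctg
GGGGATTCC was found in 4 of the 7 promoters (H2-K1, H2-D1, H2-Q6 and H2-Q7), against 0.259% of all 27025 promoters in the table. The ISRE spacing GAANNGAAA was found in 5 of the 7 (the same 4 and H2-Q4), against 7.56% of all promoters. B2m and H2-T23 held the other spacing, GAAANNGAA, which 8.57% of all promoters hold. TGACG was in 5 of the 7 (all but H2-T23 and H2-Q6), against 21.0% of all promoters, and CCAAT was in 7 of the 7, against 37.9%. In H2-Q4 TGACG lay after the first CCAAT match, at -73 and 31 from the start, while in the other promoters that held it a TGACG match lay before. H2-T23 alone had no CCAAT match on the opposite strand. No match overlapped another in these promoters. A match describes letters in this window only.

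**Figure D1:**
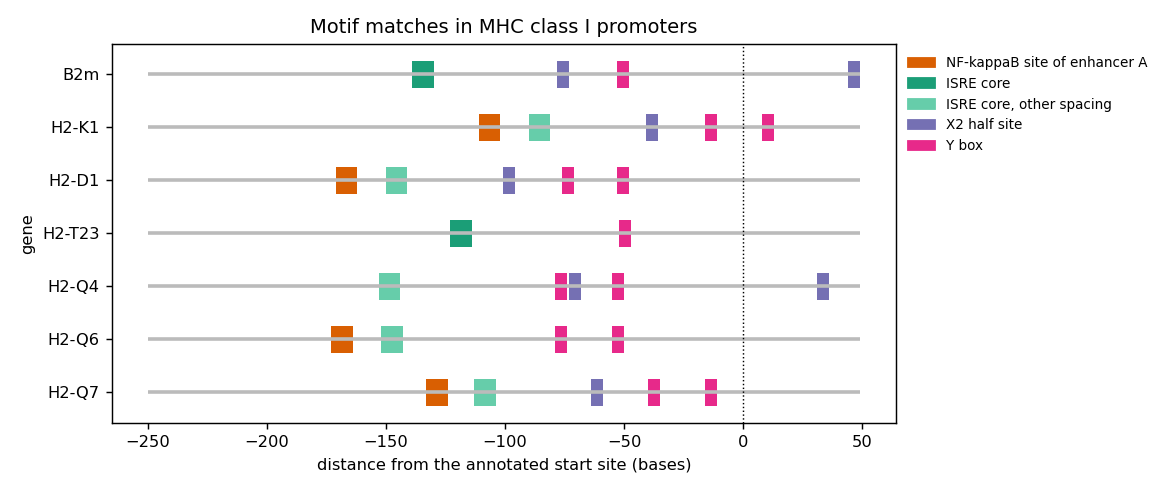
Motif matches in the 7 promoters, by distance in bases from the transcript start on the horizontal axis and by gene on the vertical axis, with colour for the motif. The enhancer A match lies just upstream of the ISRE match in H2-K1, H2-D1, H2-Q6 and H2-Q7, while B2m and H2-T23 show no enhancer A match and an ISRE match of the other spacing.

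The heavy chain genes are near copies of one another, which bears on how far a value belongs to a single gene. Over coding bases H2-Q6 and H2-Q7 were 93.1% identical, and H2-Q7 was 96.0% identical to H2-Q5, a gene outside the group. H2-K1 and H2-D1 were 88.3% identical. H2-T24 was the most divergent heavy chain, 54.3% to 60.1% identical to the others. Of the windows of 50 bases in a gene's transcripts, 40.2% in H2-Q7, 31.97% in H2-Q6, 28.8% in H2-T23 and 24.3% in H2-Q4 occurred in another gene as well, against 14.3% in H2-D1, 8.79% in H2-K1, 3.23% in H2-T24 and 0% in B2m. The values of H2-Q6 and H2-Q7 are therefore uncertain. In the GRCm38 annotation H2-T23 (chr17:36029773-36032855) and H2-T24 (chr17:36005695-36020560), both on the minus strand, lie under an antisense gene, A930015D03Rik, listed at 4.86 to 12.2 FPKM. The library kit named in the labels does not mark strand, so reads of that gene and of these 2 cannot be told apart where they overlap. H2-K1 lies at chr17:33996017-34000347 on the minus strand, and H2-D1 at chr17:35262730-35267499, H2-Q4 at chr17:35379617-35385290, H2-Q6 at chr17:35424850-35430055 and H2-Q7 at chr17:35439155-35443773 on the plus strand. B2m (chr2:122147686-122153083, plus strand, 4 exons) overlaps the minus-strand gene Patl2, and H2-Q4 the minus-strand gene Gm11131.

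Values are FPKM, in which fragments are divided by the length of the transcript and the depth of the library, so genes of 1 library can be compared. The table holds no counts. The steps between low values put the other libraries at 12.1% to 65.98% of the depth of AE9a+Meis2 replicate 2, a rough estimate, so no counting interval is given. In the library labelled AE+Meis2 replicate 1 Runx1t1, the ETO part of the fusion, stood at 21.6 FPKM, against 218 and 223 in the other AE+Meis2 libraries and 10.33 to 26.8 in those of both AE9a groups. Its Meis2 level was 13.1 FPKM, against 38.2 and 81.5 in the other AE+Meis2 libraries, 604 to 1277 in AE9a+Meis2 and 6.99 and 13.2 in AE9a, so this library goes against its label. AE9a+Meis2 replicate 3 and AE9a replicate 1 listed values above 0 for 84.2% and 72.1% of 1536 genes of families that are silent in marrow, against 3.32% to 6.58% in the other 6 libraries. Differences of the 8 members are given with and without these libraries, and so are the medians of the other gene lists. Without AE9a+Meis2 replicate 3 and AE9a replicate 1, AE9a is left with replicate 2 alone, and differences from AE9a rest on it. That library was the lowest of the 8 for B2m, H2-K1, H2-D1, H2-Q4 and H2-Q7. The elongation factor gene Eef1a1, used in translation by every cell, had a listed value of 0 in each of the 3 AE9a+Meis2 libraries, against 5756 to 8302 FPKM in the other 5 libraries. A listed 0 can be a failed estimate, and 2 of the 3 comparisons rest on that group. As a check of the tissue, Ptprc, the pan-leukocyte antigen CD45, stood at 39.4 to 298 FPKM in the 8 libraries.

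B2m, the shared light chain, was the most abundant of the 8 in every library, and ranked between 39 and 144 among the 23997 rows. In AE+Meis2 it averaged 2469 ± 278 FPKM (SD, n = 3), followed by H2-K1 at 511 ± 13.0 FPKM, H2-D1 at 440 ± 80.2 FPKM, H2-T23 at 145 ± 18.5 FPKM, H2-Q4 at 99.6 ± 18.1 FPKM and H2-T24 at 85.7 ± 17.6 FPKM. H2-Q6 at 6.63 ± 0.529 FPKM and H2-Q7 at 5.65 ± 2.15 FPKM were far below. Neighbours in this order whose ranges overlapped were H2-K1 with H2-D1, H2-Q4 with H2-T24 and H2-Q6 with H2-Q7, while H2-T23 lay above H2-Q4 in each of the 3 libraries. In AE9a+Meis2 and in AE9a the ranges of H2-T23 and H2-Q4 overlapped, and H2-T24 lay below H2-Q4 in each library.

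**Figure D2:**
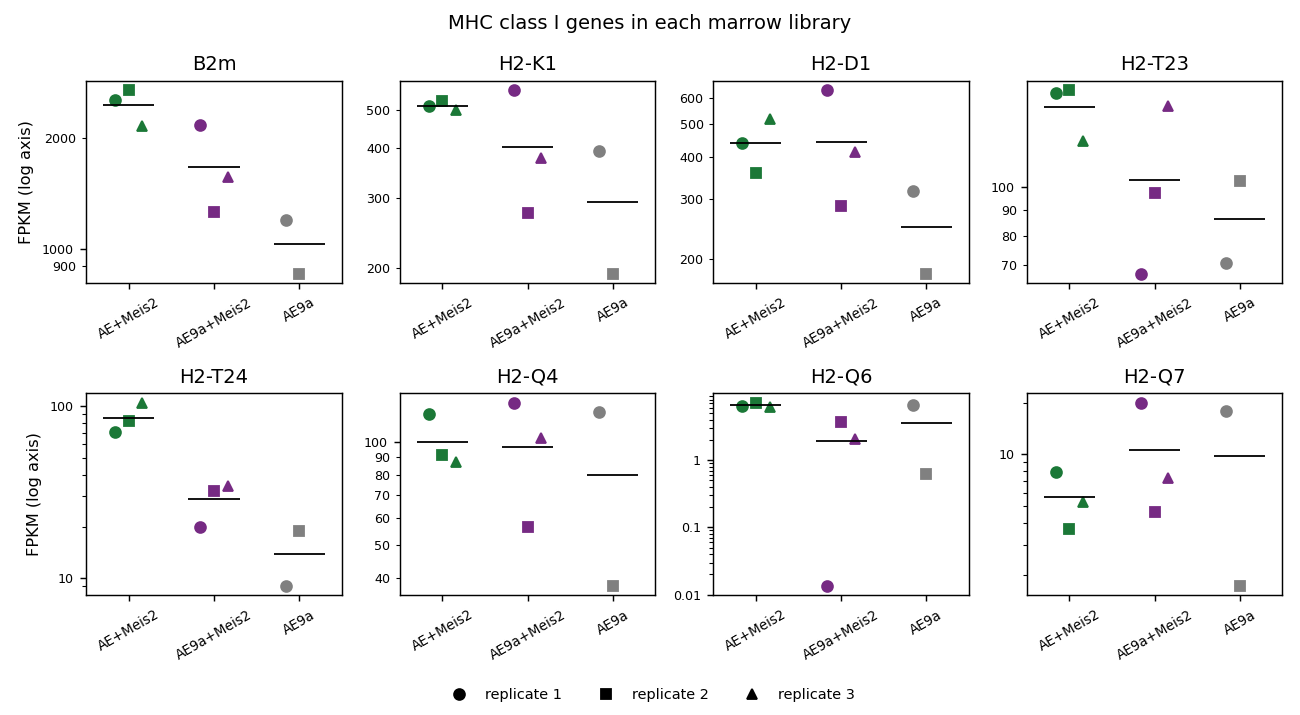
FPKM (log axes that differ between panels) of each of the 8 genes in every library, with groups on the horizontal axis, a symbol per replicate number and a line at the group mean. B2m, H2-K1, H2-T23, H2-T24 and H2-Q4 follow the order AE+Meis2, AE9a+Meis2, AE9a in their means. The highest AE9a+Meis2 point lies above every AE+Meis2 point for H2-K1, H2-D1, H2-Q4 and H2-Q7.

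B2m, without which class I heavy chains do not fold stably, had 2545, 2700 and 2161 FPKM in AE+Meis2, 2172, 1265 and 1571 FPKM in AE9a+Meis2, and 1203 and 860 FPKM in AE9a. Each AE9a+Meis2 library lay above both AE9a libraries, and the AE+Meis2 libraries overlapped with AE9a+Meis2 only through the lowest of the first and the highest of the second. On the scale of log2(FPKM + 1) the difference was 0.59 ± 0.26 (± gives the standard error of the linear model fitted by limma) between AE+Meis2 and AE9a+Meis2. It was 0.68 ± 0.29 between AE9a+Meis2 and AE9a, and 1.27 ± 0.29 between AE+Meis2 and AE9a. Without AE+Meis2 replicate 1 the difference of AE+Meis2 from AE9a+Meis2 was 0.57 and that from AE9a 1.25. Without the pair of libraries with values in silent gene families the 3 differences were 0.57, 0.95 and 1.52. With quantile normalization the first was 0.15. B2m was one of the 2 members, with H2-T24, that stood on the same side in each comparison under all 17 other settings tried.

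H2-K1, the heavy chain H-2K, had 510, 525 and 499 FPKM in AE+Meis2, 559, 275 and 378 FPKM in AE9a+Meis2, and 394 and 194 FPKM in AE9a. The 3 AE+Meis2 values lay within a narrow band above both AE9a values, whereas the AE9a+Meis2 values lay on both sides of that band. Its log2 difference was 0.40 ± 0.34 between AE+Meis2 and AE9a+Meis2, 0.48 ± 0.38 between AE9a+Meis2 and AE9a, and 0.88 ± 0.38 between AE+Meis2 and AE9a. Without AE9a replicate 2, the lowest library, the AE9a+Meis2 difference from AE9a was -0.03. Leaving out the silent-family pair gave 0.38, 1.01 and 1.39. Without AE+Meis2 replicate 1 the AE+Meis2 difference was 0.40 from AE9a+Meis2 and 0.89 from AE9a.

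H2-D1, the heavy chain H-2D, had 440, 359 and 519 FPKM in AE+Meis2, 631, 287 and 413 FPKM in AE9a+Meis2, and 317 and 181 FPKM in AE9a. Here AE9a+Meis2 reached beyond the range of AE+Meis2 on both sides, and only AE+Meis2 lay wholly above AE9a. The log2 difference was 0.05 ± 0.35 between AE+Meis2 and AE9a+Meis2, with the other sign under both other scalings (-0.03 with each), without AE+Meis2 replicate 3 (-0.08) and without AE9a+Meis2 replicate 2 (-0.23). It was 0.81 ± 0.39 between AE9a+Meis2 and AE9a and 0.86 ± 0.39 between AE+Meis2 and AE9a. Without the silent-family pair the 3 were 0.03, 1.23 and 1.26, and without AE+Meis2 replicate 1 the AE+Meis2 differences were 0.04 and 0.85.

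H2-T23 encodes Qa-1, which presents leader peptides of other class I heavy chains to the CD94/NKG2A receptor of NK cells. It had 155, 157 and 124 FPKM in AE+Meis2, 67.2, 97.6 and 145 FPKM in AE9a+Meis2, and 70.5 and 103 FPKM in AE9a. Each AE+Meis2 library lay above both AE9a libraries, and AE9a+Meis2 spanned nearly the whole range of the others. The log2 difference was 0.55 ± 0.30 between AE+Meis2 and AE9a+Meis2, 0.21 ± 0.34 between AE9a+Meis2 and AE9a, and 0.75 ± 0.34 between AE+Meis2 and AE9a. The AE9a+Meis2 difference from AE9a had the other sign without the silent-family pair (-0.34), without AE9a+Meis2 replicate 3 alone (-0.07) and without AE9a replicate 1 alone (-0.06). Without that pair the AE+Meis2 difference was 0.82 from AE9a+Meis2 and 0.48 from AE9a, and without AE+Meis2 replicate 1 it was 0.49 and 0.70.

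H2-T24, a nonclassical heavy chain gene of the same H2-T region, separated the 3 groups. It had 70.5, 81.6 and 105 FPKM in AE+Meis2, 19.9, 32.3 and 34.3 FPKM in AE9a+Meis2, and 9.05 and 18.8 FPKM in AE9a. No library of a group overlapped with another group, although AE9a+Meis2 replicate 1 and AE9a replicate 2 lay close together. Its log2 difference was 1.56 ± 0.33 between AE+Meis2 and AE9a+Meis2, 1.05 ± 0.37 between AE9a+Meis2 and AE9a, and 2.60 ± 0.37 between AE+Meis2 and AE9a. Without AE+Meis2 replicate 1 the AE+Meis2 differences were 1.69 and 2.73. Without the silent-family pair the 3 differences were 1.70, 0.42 and 2.11, so the difference between AE9a+Meis2 and AE9a was the one that moved most with these libraries.

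H2-Q4 encodes the nonclassical molecule Qb-1. It had 120, 91.3 and 87.2 FPKM in AE+Meis2, 130, 56.5 and 102 FPKM in AE9a+Meis2, and 122 and 38.0 FPKM in AE9a. The 3 groups overlapped, and the 2 AE9a libraries differed by more than the group means did. The log2 difference was 0.11 ± 0.47 between AE+Meis2 and AE9a+Meis2, 0.41 ± 0.53 between AE9a+Meis2 and AE9a, and 0.53 ± 0.53 between AE+Meis2 and AE9a. The first had the other sign with quantile normalization (-0.02), without AE+Meis2 replicate 1 (-0.03) and without AE9a+Meis2 replicate 2 (-0.22), and the other 2 had it without AE9a replicate 2 (-0.42 and -0.30). Without the silent-family pair the 3 were 0.20, 1.16 and 1.35, and without AE+Meis2 replicate 1 the third was 0.38.

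H2-Q6 and H2-Q7 belong to the genes of Qa-2, a molecule anchored to the membrane by a lipid. H2-Q6 had 6.39, 7.24 and 6.27 FPKM in AE+Meis2, 0.0135, 3.76 and 2.06 FPKM in AE9a+Meis2, and 6.60 and 0.617 FPKM in AE9a. H2-Q7 had 7.94, 3.68 and 5.32 FPKM in AE+Meis2, 20.0, 4.65 and 7.26 FPKM in AE9a+Meis2, and 17.9 and 1.73 FPKM in AE9a. AE9a+Meis2 replicate 1 thus had the lowest H2-Q6 and the highest H2-Q7 of the 8 libraries. The log2 difference of H2-Q6 was 1.64 ± 0.71 between AE+Meis2 and AE9a+Meis2, where the groups did not overlap, -0.52 ± 0.79 between AE9a+Meis2 and AE9a, and 1.12 ± 0.79 between AE+Meis2 and AE9a. Its difference between AE9a+Meis2 and AE9a had the other sign without AE9a+Meis2 replicate 1 (0.12), without AE9a replicate 1 (0.60) and without the silent-family pair (0.44), and its difference between AE+Meis2 and AE9a was 0.0029 without AE9a replicate 2. Without the silent-family pair its differences of AE+Meis2 were 1.80 from AE9a+Meis2 and 2.24 from AE9a, and without AE+Meis2 replicate 1 they were 1.66 and 1.14. For H2-Q7 the differences were -0.63 ± 0.77, 0.47 ± 0.86 and -0.16 ± 0.86 in the same 3 comparisons. The second had the other sign without AE9a+Meis2 replicate 1 (-0.07) or AE9a replicate 2 (-0.93). The third had it without AE+Meis2 replicate 2 (0.07), and was 1.23 both without AE9a replicate 1 and without the silent-family pair. Leaving out that pair gave -0.76 for the first and 2.00 for the second, and leaving out AE+Meis2 replicate 1 gave -0.87 for the first and -0.40 for the third.

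Because reads of H2-Q6, H2-Q7, H2-Q8 and H2-Q9 may be shared out between them, their sum was also taken. Identity to H2-Q8 and H2-Q9 was not measured. H2-Q5, which was 96.0% identical to H2-Q7 and stood at 9.17 to 33.3 FPKM, was left out of the sum. The sum was 28.0, 16.3 and 16.4 FPKM in AE+Meis2, 53.5, 13.7 and 25.2 FPKM in AE9a+Meis2, and 31.4 and 10.16 FPKM in AE9a. On the sum the 3 groups overlapped, the AE9a+Meis2 mean being 30.8 ± 20.5 FPKM, against 20.2 ± 6.73 FPKM in AE+Meis2 and 20.8 ± 15.0 FPKM in AE9a. The separation of AE+Meis2 from AE9a+Meis2 in H2-Q6 alone was not present in the sum.

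In AE+Meis2 against AE9a+Meis2, 7 of the 8 members had a positive log2 difference, 6 with median-of-ratios scaling and 5 with quantile normalization, where H2-D1, and with quantile normalization also H2-Q4, turned. Without AE9a+Meis2 replicate 2 the number was 5, and without AE+Meis2 replicate 1 or AE+Meis2 replicate 3 it was 6. The median over the members was 0.47, against 0.04 over the 12565 genes tested, of which 54.9% were positive. In AE9a+Meis2 against AE9a 7 of 8 were positive with a median of 0.48, against a median of -0.0011 and 49.8% over all genes, but without AE9a replicate 2 only 4 of 8 were positive. For AE+Meis2 against AE9a 7 of 8 were positive with a median of 0.87, against 0.06 and 55.9% over all genes. In that comparison 6 of 8 were positive without AE9a replicate 2, and 8 of 8 without AE+Meis2 replicate 2 or AE9a replicate 1. Without the uncertain H2-Q6 and H2-Q7 the 3 medians were 0.47, 0.58 and 0.87. The last 2 comparisons share the AE9a libraries, and the first shares a group with each, so they are not independent of one another.

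**Figure D3:**
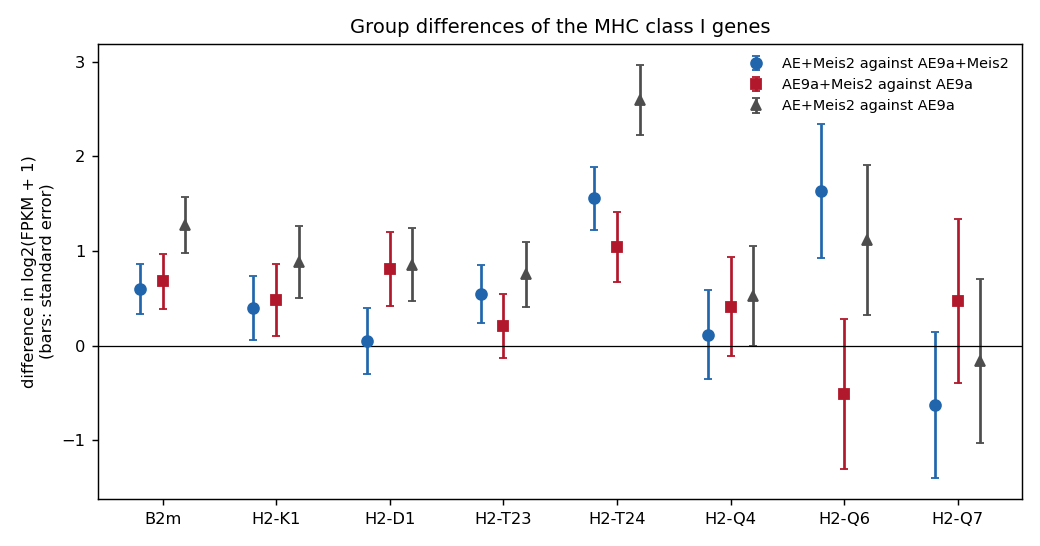
Difference in log2(FPKM + 1), on the vertical axis, of each of the 8 genes in the 3 comparisons, with bars for the standard error. H2-T24 stands highest in AE+Meis2 against AE9a at 2.60, and the bars of H2-Q4 and H2-Q7 reach 0 in each comparison.

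All 8 members passed the filter on low values. By limma with Benjamini-Hochberg adjustment over all genes and a threshold of 0.05, 0 of the 8 were called in AE+Meis2 against AE9a+Meis2, where 0.0398% of all genes were called. In AE9a+Meis2 against AE9a 0 of 8 were called, with 0.0478% of all genes, and in AE+Meis2 against AE9a 0 of 8, with 0.0318%. At an unadjusted p under 0.05 limma counted 1, 1 and 2 members in the 3 comparisons, where 7.15%, 3.06% and 5.98% of all genes were counted. Groups did not overlap, with the first named higher, for 2 of 8 in AE+Meis2 against AE9a+Meis2 (H2-T24 and H2-Q6), for 2 of 8 in AE9a+Meis2 against AE9a (B2m and H2-T24) and for 5 of 8 in AE+Meis2 against AE9a (B2m, H2-K1, H2-D1, H2-T23 and H2-T24). Over all genes tested the same held for 7%, 13.1% and 9.96%. As these contrasts served to choose the members, the counts are a description only.

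The makeup of the heavy chain transcripts shows where H2-T24 stood apart from the classical genes. H2-K1 and H2-D1 together held 73.5% ± 1.92 of the summed FPKM of the 7 heavy chains in AE+Meis2, 76.9% ± 5.64 in AE9a+Meis2 (SD, n = 3 each) and 72.9% ± 4.28 in AE9a (n = 2). H2-T24 held 6.61% ± 1.21 in AE+Meis2, 2.95% ± 1.45 in AE9a+Meis2 and 2.23% ± 1.79 in AE9a. The share of the classical pair thus overlapped between the groups, while each AE+Meis2 library had a larger H2-T24 share than any other library. H2-T23 per H2-T24 was 2.19, 1.92 and 1.18 in AE+Meis2, 3.38, 3.02 and 4.24 in AE9a+Meis2, and 7.79 and 5.48 in AE9a, with no overlap between the groups. B2m per summed heavy chain was 1.94, 2.21 and 1.61 in AE+Meis2, 1.52, 1.67 and 1.45 in AE9a+Meis2, and 1.28 and 1.60 in AE9a. AE9a+Meis2 overlapped with both other groups, while the lowest AE+Meis2 value lay just above the highest AE9a value. These ratios were formed after the values were known.

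**Figure D4:**
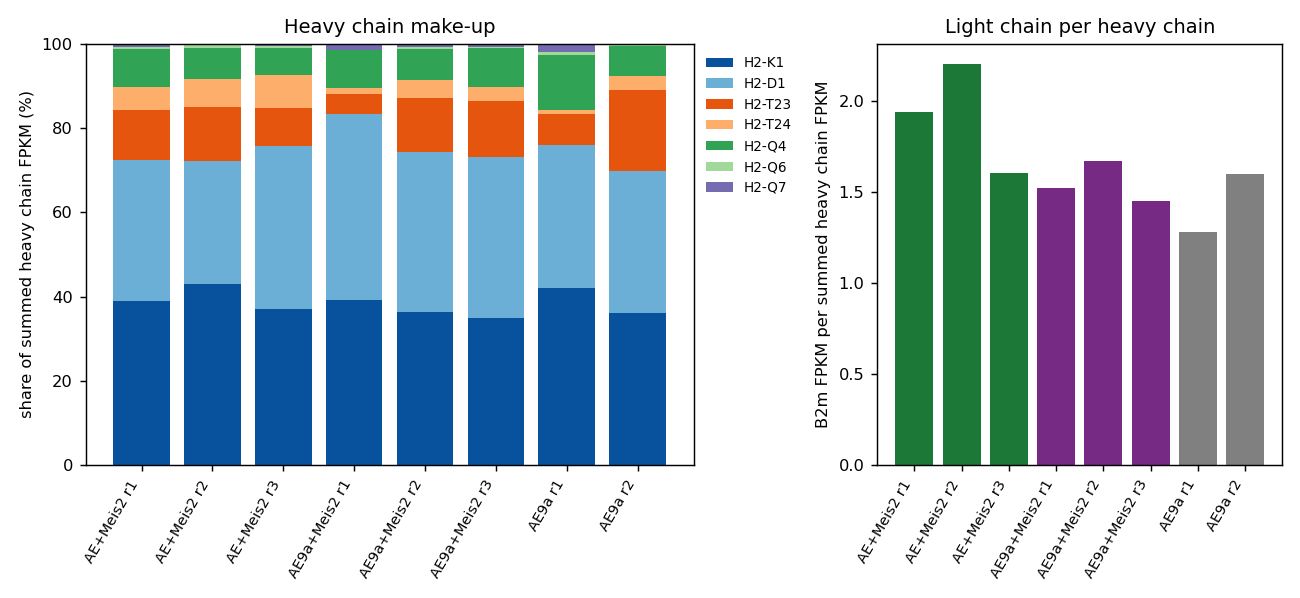
Left, share of each heavy chain in the summed heavy chain FPKM (percent) of each of the 8 libraries (r, replicate); right, FPKM of B2m per summed heavy chain FPKM in the same libraries. H2-K1 and H2-D1 together hold 69.9% to 83.4% of the sum, and the B2m ratio runs between 1.28 in AE9a replicate 1 and 2.21 in AE+Meis2 replicate 2.

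Within the groups the members did not vary as 1 block. With each value taken as its deviation from its group mean, over 8 libraries that share only 5 degrees of freedom, H2-K1 correlated with B2m (r = 0.93), H2-D1 (r = 0.90) and H2-Q4 (r = 0.94), and H2-Q4 with H2-Q7 (r = 0.95). H2-T24 ran the other way, with r = -0.87 to B2m, -0.85 to H2-K1 and -0.90 to H2-Q7, and r = 0.64 to H2-T23. Over the 8 libraries without regard to group, r between H2-K1 and B2m was 0.92, and 0.93 without the 2 libraries farthest from the median of the first gene of the pair (here B2m). In the same way r was 0.90 and then 0.60 for H2-K1 with H2-D1, 0.84 and then 0.88 for H2-Q4 with H2-Q7, but 0.88 and then 0.0044 for H2-K1 with H2-Q4, a relation that rests on 2 libraries. For H2-T24, r to B2m was 0.71 and then 0.53, to H2-K1 0.44 and then 0.46, and to H2-T23 0.80 and then 0.61, so its negative values were seen within groups and not over the libraries. The clearest single case was AE9a+Meis2 replicate 1, which had the highest H2-K1, H2-D1, H2-Q4 and H2-Q7 of all libraries, the lowest H2-T23 of all and the lowest H2-T24 of its group. Correlations here are descriptions over few libraries that share depth and cell makeup.

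Nlrc5, the coactivator of class I transcription, had 11.5, 10.56 and 8.57 FPKM in AE+Meis2, 15.5, 6.81 and 8.41 FPKM in AE9a+Meis2, and 7.17 and 3.06 FPKM in AE9a. Like the classical genes it was highest in AE9a+Meis2 replicate 1 and lowest in AE9a replicate 2. Over the 8 libraries its log2 level followed that of H2-K1 with r = 0.93 and Spearman's rho = 0.95, with r = 0.83 without the 2 libraries farthest from the Nlrc5 median and r = 0.96 within groups. Its correlation with H2-T24 was r = 0.33 (rho = 0.45), r = 0.68 without the same 2 libraries (AE9a replicate 2 and AE9a+Meis2 replicate 1) and r = -0.95 within groups. Leaving out those 2 also moved r to H2-D1 to 0.55 (0.91 with them), to H2-T23 to 0.82 (0.04 with them) and to H2-Q7 to -0.30 (0.66 with them), so how the members differ in their relation to Nlrc5 rests largely on those 2 libraries.

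Of 15 listed regulators of class I transcription, 12 had a positive difference in AE+Meis2 against AE9a+Meis2, 8 in AE9a+Meis2 against AE9a and 13 in AE+Meis2 against AE9a, with medians of 0.17, 0.11 and 0.25. Limma called 0 in each, and at an unadjusted p under 0.05 counted 2, 2 and 4, all with a positive difference. Over all genes tested the shares were 0.0398%, 0.0478% and 0.0318% after adjustment, and 7.15%, 3.06% and 5.98% at the unadjusted threshold. The same shares apply to each list that follows. Among them was Irf1, an activator of interferon-response promoters, with 27.3, 23.9 and 58.6 FPKM in AE+Meis2 and 15.1 and 14.6 FPKM in AE9a (1.13 ± 0.40, limma adjusted p = 0.72). Irf2, a related factor, differed by 0.60 ± 0.22 between AE+Meis2 and AE9a (limma adjusted p = 0.734), and Nfyb, a subunit of the factor that binds the Y box, by 0.44 ± 0.18 between AE+Meis2 and AE9a+Meis2 (limma adjusted p = 0.683). The medians were 0.31, 0.11 and 0.42 without AE+Meis2 replicate 1, and without the silent-family pair 0.18, 0.03 and 0.20. Irf1 differed by 1.28 and 1.16 in those 2 fits, Irf2 by 0.68 and 0.40, and Nfyb by 0.50 and 0.39.

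The 13 genes of peptide loading and trimming supply class I with its peptides. A positive difference was found for 10 in AE+Meis2 against AE9a+Meis2, 13 in AE9a+Meis2 against AE9a and 13 in AE+Meis2 against AE9a, with medians of 0.24, 0.44 and 0.66. Limma called 0 in each, and at an unadjusted p under 0.05 counted 1 with a negative difference in the first, and 3 and 6 with a positive one in the others. Tap1, a subunit of the peptide transporter, had 64.0, 62.7 and 55.3 FPKM in AE+Meis2, 50.7, 43.0 and 53.5 FPKM in AE9a+Meis2, and 44.1 and 24.95 FPKM in AE9a. Every AE+Meis2 library lay above every other library, and the difference from AE9a was 0.85 ± 0.26 (limma adjusted p = 0.653). Tapbp, or tapasin, which bridges the transporter and the heavy chain, differed by 0.77 ± 0.22 between AE+Meis2 and AE9a (limma adjusted p = 0.603). Psmb10, a subunit of the immunoproteasome, was highest in AE9a+Meis2, with 57.7, 47.3 and 54.9 FPKM, against 31.3 and 34.3 FPKM in AE9a (0.68 ± 0.20, limma adjusted p = 1), and AE+Meis2 had 46.6, 37.2 and 35.4 FPKM. These medians were 0.20, 0.44 and 0.71 without AE+Meis2 replicate 1, and without the silent-family pair 0.30, 0.24 and 0.56. Tap1 differed between AE+Meis2 and AE9a by 0.81 and 1.25 in those 2 fits, Tapbp by 0.72 and 0.82, and Psmb10 between AE9a+Meis2 and AE9a by 0.59 without the silent-family pair.

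Among 34 other class I heavy chain and class I-like genes in the table, 18 passed the filter. Of these, 8, 16 and 12 had a positive difference in AE+Meis2 against AE9a+Meis2, AE9a+Meis2 against AE9a and AE+Meis2 against AE9a, with medians of -0.23, 0.49 and 0.16. Limma called 0 in each, and at an unadjusted p under 0.05 counted 0, 0 and 1. The 1 was H2-T22, a heavy chain gene of the H2-T region whose product is recognised by some gamma delta T cells, with 20.7, 14.2 and 17.9 FPKM in AE+Meis2, 11.4, 10.08 and 15.8 FPKM in AE9a+Meis2, and 8.998 and 9.96 FPKM in AE9a. Its difference between AE+Meis2 and AE9a was 0.81 ± 0.26 (limma adjusted p = 0.691). H2-Q10, a secreted class I molecule of liver, leaned the other way, with 2.83, 0.903 and 7.37 FPKM in AE+Meis2, against 4.51, 12.1 and 16.5 FPKM in AE9a+Meis2 (-1.46 ± 0.64, limma adjusted p = 0.714). Without AE+Meis2 replicate 1 only 17 passed the filter and the medians were -0.52, 0.49 and -0.0016, so the third changed sign, and without the silent-family pair they were -0.13, 0.54 and 0.50. In those 2 fits H2-T22 differed by 0.69 and 0.75 and H2-Q10 by -1.44 and -1.11.

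Of the 16 listed receptors of class I in the table, 9 passed the filter, and 8, 7 and 8 of them had a positive difference in the same 3 comparisons, with medians of 0.49, 0.22 and 0.65. Limma called 0 in each, and counted 0, 0 and 1 at an unadjusted p under 0.05. The 1 was Cd8b1, a chain of the CD8 coreceptor, with 3.79, 6.53 and 4.02 FPKM in AE+Meis2 and 1.37 and 2.24 FPKM in AE9a (1.03 ± 0.38, limma adjusted p = 0.767). For 10 genes of class I turnover and trafficking the counts were 5, 8 and 8, with medians of 0.07, 0.15 and 0.18, with 0 called by limma and 0, 0 and 1 at an unadjusted p under 0.05. The 1 was Ube2j1, a ubiquitin-conjugating enzyme of the endoplasmic reticulum, with a difference of 0.80 ± 0.24 between AE+Meis2 and AE9a (limma adjusted p = 0.634). Leaving out AE+Meis2 replicate 1, the medians of the receptors were 0.44, 0.22 and 0.44, and without the silent-family pair 0.71, -0.27 and 0.25, with only 3 of 9 positive in AE9a+Meis2 against AE9a. For the turnover genes they were 0.12, 0.15 and 0.23, and 0.09, 0.16 and 0.04. In those 2 fits Cd8b1 differed between AE+Meis2 and AE9a by 1.15 and 0.81, and Ube2j1 by 0.97 and 0.77.

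Of 15 interferon response genes with no role in presentation, 14, 15 and 15 had a positive difference in AE+Meis2 against AE9a+Meis2, AE9a+Meis2 against AE9a and AE+Meis2 against AE9a, with medians of 0.76, 1.88 and 2.94. Limma called 0 in each after adjustment, and at an unadjusted p under 0.05 counted 4, 11 and 14. This list, like the other lists, was chosen with earlier results of these data known, so its counts and medians are a description only. Rtp4, an interferon-induced gene, had 70.0, 66.6 and 56.3 FPKM in AE+Meis2, 7.72, 10.198 and 36.4 FPKM in AE9a+Meis2, and 5.60 and 0.314 FPKM in AE9a. The groups did not overlap, and the difference of AE+Meis2 from AE9a was 4.47 ± 0.80 (limma adjusted p = 0.266). It was 5.63 without the silent-family pair, a fit in which AE9a is replicate 2 alone, the library at 0.314 FPKM. Ifit1, which binds foreign RNA, had 63.3, 12.8 and 22.9 FPKM in AE+Meis2, 4.91, 6.14 and 8.77 FPKM in AE9a+Meis2, and 1.81 and 0.462 FPKM in AE9a (3.77 ± 0.64 between AE+Meis2 and AE9a, limma adjusted p = 0.238). Without AE+Meis2 replicate 1 the medians were 0.41, 1.88 and 2.42, Rtp4 differed by 4.40 and Ifit1 by 3.16, and without the silent-family pair the medians were 1.18, 2.10 and 3.32 and Ifit1 differed by 4.24. With all libraries the interferon list had larger medians than the class I members in each comparison. Without AE+Meis2 replicate 1 this order turned in AE+Meis2 against AE9a+Meis2, with 0.41 for the interferon list and 0.45 for the members. The 2 sets were not tested against each other.

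**Figure D5:**
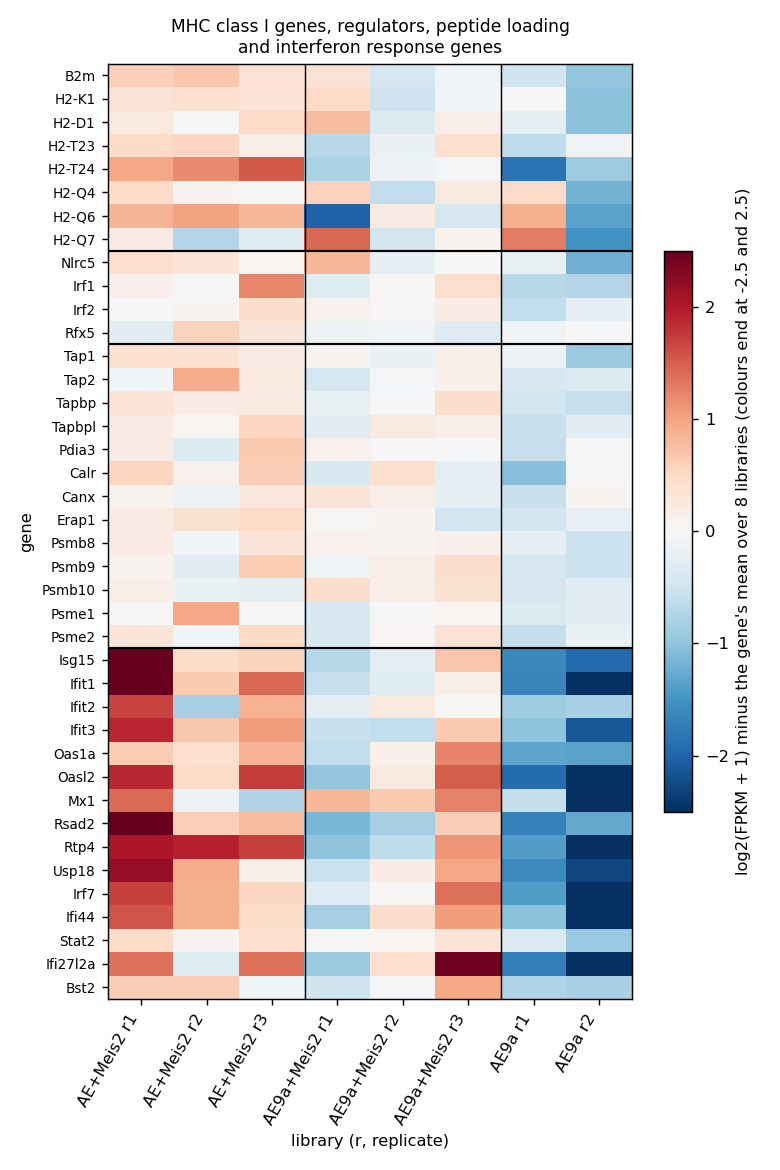
Colour shows log2(FPKM + 1) minus the gene's mean over the 8 libraries (largest deviations clipped) for the 8 members, 4 regulators, 13 loading genes and 15 interferon response genes (rows) in each library (columns; r, replicate). H2-T24 is above its mean in each AE+Meis2 library and below it in both AE9a libraries, while H2-K1, H2-D1, H2-Q4 and Nlrc5 are highest in AE9a+Meis2 replicate 1.

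The genes most like the members over the 8 libraries were sought among 8626 candidates with a mean of at least 5 FPKM, by Pearson's r with the members' mean centred log2 level. Tap1 came first (r = 0.97), followed by Ifi203 (0.95), Rtp4 (0.93), Dhx58 (0.93), Ifit3 (0.91), Xaf1 (0.91), Mndal (0.91) and Trim30a (0.90). Ifi203 and Mndal belong to the interferon-inducible PYHIN family, and Dhx58 encodes LGP2, a regulator of RNA sensing. Trim30a had 63.3, 78.2 and 80.8 FPKM in AE+Meis2, 28.0, 34.1 and 39.7 FPKM in AE9a+Meis2, and 19.2 and 10.9 FPKM in AE9a, without overlap between the groups. These genes were picked by likeness to the members in the same libraries, and the members by their group differences. A like order of the groups therefore follows in part from the choice and is a description only.

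Marker genes of other marrow cells also varied between the libraries. In bulk marrow fewer cells of a type and less RNA per cell cannot be told apart. The summed level of 5 monocyte and macrophage markers was 274 to 609 FPKM in AE+Meis2 and 586 to 1917 FPKM in AE9a+Meis2. In AE9a it was 388 to 413 FPKM. The highest sum was that of AE9a+Meis2 replicate 1, where H2-K1, H2-D1 and H2-Q4 were highest too. Of that sum Ly6c2 alone made up 1573 FPKM. Cd68 was also highest in that library (147 FPKM), while Csf1r, Ccr2 and Ms4a7 were highest in other libraries. The sum of 5 dendritic cell markers was 8.41 to 23.2 FPKM in AE+Meis2, 33.3 to 57.9 FPKM in AE9a+Meis2 and 24.2 to 39.6 FPKM in AE9a. Flt3 made up 53.3 FPKM of the 57.9 in AE9a+Meis2 replicate 1, and Itgax 23.3 FPKM of the 39.6 in AE9a replicate 2. Single markers did not all follow the sum. Itgax averaged 4.83 FPKM in AE+Meis2 against 1.77 FPKM in AE9a+Meis2, and Zbtb46 was highest in AE+Meis2 replicate 1 (7.70 FPKM). T cell markers, 5 in the table, summed to 22.7 to 34.4 FPKM in AE+Meis2, 9.83 to 56.4 FPKM in AE9a+Meis2 and 17.1 to 21.7 FPKM in AE9a, and the groups overlapped. The 5 NK cell markers summed to 25.6 to 104 FPKM in AE+Meis2 and 6.24 to 36.7 FPKM in AE9a+Meis2. In AE9a they summed to 16.3 to 38.6 FPKM. Nkg7 was the largest part of this sum in each library, with 101 FPKM of the 104 in AE+Meis2 replicate 3. The 5 B cell markers summed to 36.1 to 70.0 FPKM in AE+Meis2, 28.8 to 109 FPKM in AE9a+Meis2 and 59.2 to 65.7 FPKM in AE9a. Granulocyte markers, 5 in number, summed to 336 to 34226 FPKM in AE+Meis2, 864 to 12236 FPKM in AE9a+Meis2 and 1380 to 4574 FPKM in AE9a. The 7 markers of stroma and endothelium summed to 58.3 to 98.3 FPKM in AE+Meis2, 26.1 to 50.6 FPKM in AE9a+Meis2 and 96.7 to 115 FPKM in AE9a. The sum of AE9a+Meis2 did not overlap with that of either other group, but each of the 7 markers alone overlapped between AE9a+Meis2 and AE+Meis2. Fabp4 made up 92.5 FPKM of the 115 in AE9a replicate 1 and 65.9 FPKM of the 98.3 in AE+Meis2 replicate 1. The 5 markers of platelets and megakaryocytes summed to 15.9 to 364 FPKM in AE+Meis2, 17.2 to 23.2 FPKM in AE9a+Meis2 and 24.7 to 33.0 FPKM in AE9a, the 364 standing in AE+Meis2 replicate 2. The 6 erythroid markers summed to 185 to 2012 FPKM in AE+Meis2, 477 to 1254 FPKM in AE9a+Meis2 and 282 to 1170 FPKM in AE9a. No marker of these lists was at 0 in any library. Their part in the class I differences was not tested.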

How the data were processed

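RNA of 8 leukemic marrow libraries was prepared with the TruSeq RNA kit version 2, per the labels' protocols. The authors deposited 1 table of FPKM for 23997 genes. TopHat, Cufflinks, Cuffdiff and mm10 are named in the submitters' processing notes. Their versions and settings, the annotation and any scaling (not given in the sources used here) leave unknown how reads shared by near-identical genes were divided. Sample titles gave the groups and the replicate numbers.

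FPKM were taken to log2(FPKM + 1), a scale that understates the change of low genes. The 12565 genes with at least 1 FPKM in at least 2 libraries were fitted with limma 3.58.1 in R 4.3.3, with 1 coefficient per group and empirical Bayes moderation along the intensity trend. There were 5 residual and 2.28 prior degrees of freedom. Adjustment followed Benjamini and Hochberg (BH) over all genes tested, with a threshold of 0.05. The fit was also run on simulated data with independent noise. The planted changes were larger than the members' median differences, so that run does not bear on differences of that size. Depth is unknown, so the number of libraries limits the precision.

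The members and the gene lists were chosen with earlier results of these data known. All 8 members and Nlrc5 are named whatever their result. The rule for other genes took up to 3 per list and comparison with the smallest p, of which the text gives a part, and the 8 genes most like the members. One listed gene is not reported here, though counts include it. The sum of H2-Q6 to H2-Q9, the medians without H2-Q6 and H2-Q7 and the second ISRE spacing were added after the data were seen. Identity was taken over coding bases of the GRCm38 annotation by global alignment (Biopython 1.88), in place of proteins. Promoters came from RefSeq. Other settings tried were another pseudocount, filter, scaling and trend, fits on the groups compared alone, a replicate block, and fits without libraries. Python 3.11.15 was used for the rest, with SciPy 1.17.1, NumPy 2.4.6, pandas 2.3.3 and matplotlib 3.10.9.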

Additional observations from a re-analysis of the deposited data

How the results depend on the processing

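Counts of genes past the threshold were 5 in AE+Meis2 against AE9a+Meis2, 6 in AE9a+Meis2 against AE9a and 4 in AE+Meis2 against AE9a. Fits that each left out 1 library gave 6 to 23, 2 to 9 and 1 to 10, the highest each time without AE+Meis2 replicate 3. A group left with 1 library was assumed to vary like the others. AE9a+Meis2 against AE9a gave 3 without the pair of libraries with values in silent gene families. AE+Meis2 against AE9a gave 1 with no filter on low values and 2 with only the libraries of the groups compared. Under every setting 0 of the 8 members were called. With all libraries 0 genes of the 6 other lists were called. Rtp4 differed by 5.63 in AE+Meis2 against AE9a without the silent-family pair, which leaves AE9a with 1 library.

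The median log2 difference of the members was 0.47, 0.48 and 0.87. With 1 library left out it was 0.28 to 0.54, 0.19 to 0.96 and 0.41 to 1.37. Without the silent-family pair it was 0.98 in AE9a+Meis2 against AE9a and 1.37 in AE+Meis2 against AE9a, and with quantile normalization the 3 were 0.22, 0.33 and 0.46. For Klrk1, AE9a+Meis2 against AE9a was 0.33, with the other sign without the silent-family pair (-0.085), and with 1 library left out it was -0.022 (without AE9a+Meis2 replicate 3) to 0.58. The cause was not tested. Of 408 differences of single members under other settings, 33 moved by more than the spread between replicates and 21 had the other sign.

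Replicate numbers are shared between the groups, but no label says that they pair libraries. Deviations of libraries with the same number correlated at -0.0252 to 0.133, and not every library correlated best with its own number. With the number as a replicate block the counts were 5, 2 and 0 and the members' medians 0.47, 0.52 and 0.85. Depth is known only roughly, and the low values of H2-Q6 and H2-Q7 are the least precise.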
